A study of Culex pipiens pallens and Culex quinquefasciatus with 12 samples.

Results

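Heat shock proteins and chaperones were described in whole larvae of the common house mosquito, in 5 pools of *Culex pipiens quinquefasciatus* and 7 pools of *Culex pipiens pallens*. The members were the gene models whose description holds the words heat shock, Hsp with a number, crystallin, chaperonin or DnaJ. There were 85 such models among 17757 with a read in any library. They comprised 4 small heat shock models, 8 of the Hsp70 class, 4 of the Hsp90 class, 8 DnaJ models, 48 chaperonin models and 13 remaining models. The remaining ones are transcription factors, cofactors, heat shock proteins of no stated class, and enzymes that carry the name crystallin.

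Chaperones bind unfolded or newly made proteins and keep them from clumping. Small heat shock proteins hold unfolded proteins without using ATP. Hsp70 proteins bind and release them in cycles of ATP hydrolysis, started by DnaJ proteins, and Hsp90 proteins act later, on kinases and hormone receptors among others. Chaperonins are closed chambers in which a protein folds, in mitochondria (Hsp60) and in the cytosol (the TCP-1 complex). In insects some of these genes are always active, while others are nearly silent until heat, poisons or desiccation activate heat shock factor.

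Poly(A) RNA of 30 pooled larvae went into each library, and the labels give the subspecies but no strain, age, rearing condition or exposure. The series title speaks of levels of resistance, which the labels assign to no library. No label says that the pools of a subspecies came from separate cultures, so the p-values rest on the spread between these pools alone, which may be technical. In such pools, fewer cells that use a gene and less RNA per cell cannot be told apart. Libraries held 3885 to 5183 kilo-reads, in units of 1000 unique reads. Larval storage proteins, which mark larvae, summed to 89540 to 162283 CPM, TMM-normalized reads scaled to the library total, in quinquefasciatus and to 32416 to 170834 CPM in pallens, with the lowest sums in pallens 6 and pallens 7. Vitellogenins, yolk proteins of adult females, summed to 41.3 to 92.2 CPM. Over all genes, the 57 calls became 229 without pallens 1, 209 without quinquefasciatus 5, and 9 to 33 without any 1 of the others.

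All 85 models together took 0.504% to 0.939% of the reads of a library. Levels between genes were compared as RPKM, reads scaled by model length and library total. The Hsp70 class held on average 47.1% of the summed RPKM of the members, the remaining models 24.5%, the DnaJ class 12.6%, the chaperonins 9.36%, the Hsp90 class 4.59% and the small heat shock class 1.85%. A single constitutive gene, heat shock 70 kDa protein cognate 4, alone held 29.7% to 49.2% of the members' RPKM in a library. Without it the other 7 Hsp70 models summed to 182 to 372 RPKM, less than the DnaJ sum of 331 to 713 RPKM in every library. These shares hold for models chosen by the words of their description, not for whole protein families. The words leave out 78 kDa glucose-regulated protein (CPIJ003550-RA, 418 to 1506 CPM) and endoplasmin (CPIJ002384-RA, 234 to 1241 CPM). Both are counted below with folding in the endoplasmic reticulum. The small heat shock sum varied 6.07-fold across the 12 libraries, from quinquefasciatus 4 to pallens 5, and 3.72-fold without quinquefasciatus 4. The Hsp90 sum varied 5.61-fold, and 2.79-fold without quinquefasciatus 3. The Hsp70 sum varied 2.24-fold, the DnaJ sum 2.15-fold and the chaperonin sum 1.85-fold. In every class the values of the subspecies overlapped.

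**Figure D1:**
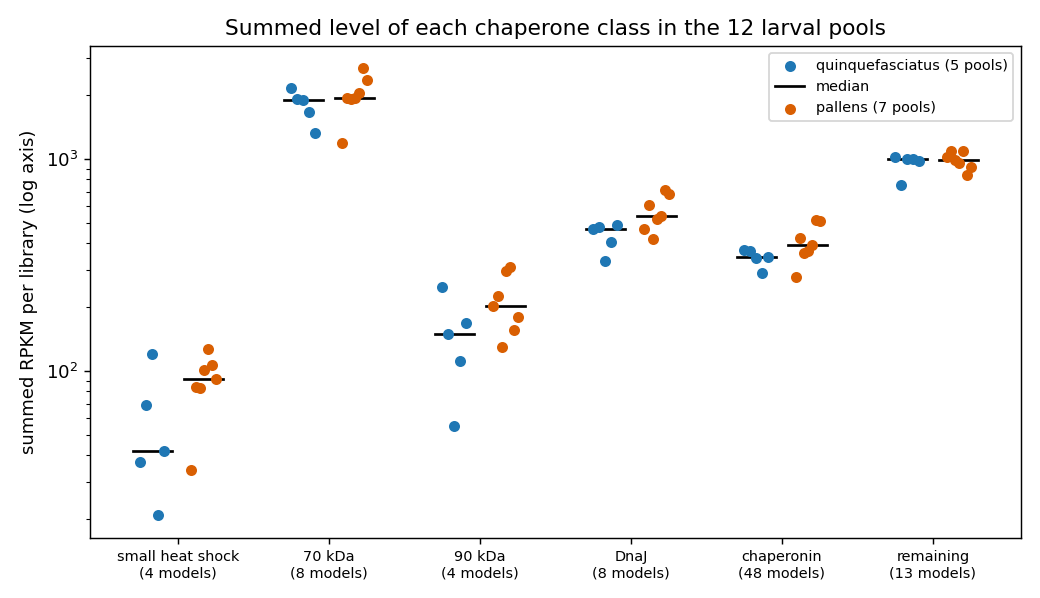
Summed RPKM of each class in each library on a log axis, with quinquefasciatus pools in blue, pallens pools in orange and the median of each subspecies as a black line. The subspecies overlap in all 6 groups, and the small heat shock sums run from 20.8 in quinquefasciatus 4 to 126 in pallens 5.

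The comparison of pallens with quinquefasciatus asked whether any chaperone transcript differed between larvae of the subspecies. Of the 85 models, 41 had enough reads to be tested, and 0 of them passed the threshold of 0.05 for edgeR's adjusted p (quasi-likelihood, Benjamini-Hochberg over 10617 genes), where 0.537% of all tested genes did. At an unadjusted p under 0.05 there were 4 members, or 9.76%, against 13% of all tested genes, so that the members' share was no larger than the background. All 4 were higher in pallens, as were 6.56% of all tested genes, while 6.46% were lower: heat shock protein 70 B2 (CPIJ014283-RA), heat shock protein 83 (CPIJ011246-RA), a chaperonin (CPIJ013429-RA) and lambda-crystallin (CPIJ019115-RA). DESeq2 called 1 of the 41, CPIJ014283-RA, where it called 2.78% of all genes. limma-voom called 0, where it called 0.867% of all genes. limma on log2 RPKM also called 0, where it called 0.961% of all genes with a pseudocount of 0.1 and 1.02% with 1.

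The fitted log2 change was above 0 in 30 of the 41 tested members and in 52.5% of all tested genes. Its median was 0.27 over the members and 0.02 over all tested genes. By class the median was 0.61 for the small heat shock models, 0.64 for the 7 tested Hsp70 models, 0.47 for the 3 tested Hsp90 models, 0.06 for the 6 tested DnaJ models, 0.36 for the 8 tested chaperonins and 0.04 for the remaining 13. Leaving out single libraries moved some of these medians by more than their size. For the remaining models the median was -0.02 without pallens 2, -0.01 without pallens 5 and up to 0.14 without quinquefasciatus 5. For DnaJ it ran from 0.0065 without quinquefasciatus 2 to 0.18 without quinquefasciatus 4, and for Hsp90 from 0.30 without quinquefasciatus 3 to 0.63 without quinquefasciatus 1. These medians describe genes measured in the same 12 libraries, and a few pools moved many of them: without pallens 4 and pallens 5 the median over the members was 0.07, that of the small heat shock models 0.18 and that of the Hsp70 class 0.11. Only in CPIJ014283-RA did the libraries of the subspecies not overlap, 2.44% of the tested members against 1.22% of all tested genes, 0.725% with every pallens library the higher.

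**Figure D2:**
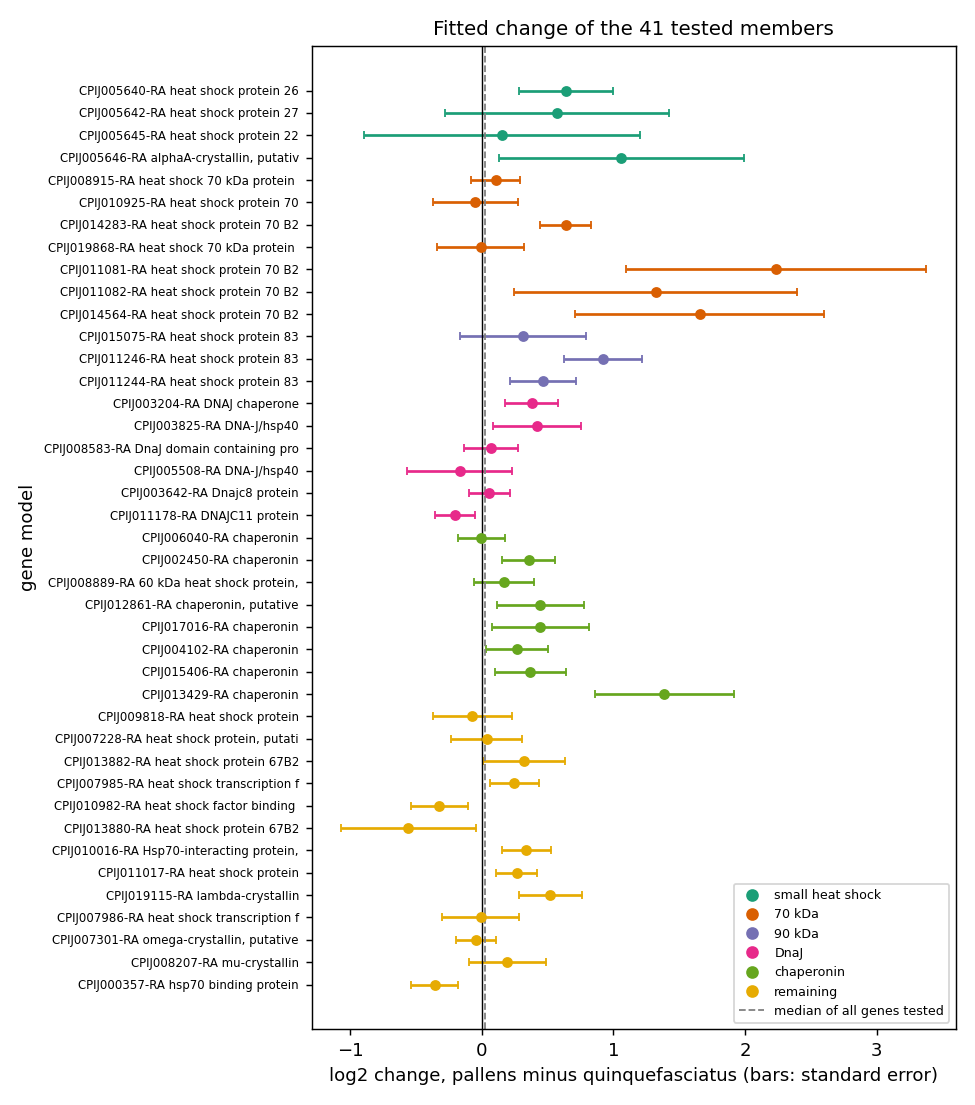
Fitted log2 change, pallens minus quinquefasciatus, of the 41 tested members with its standard error, coloured by class, beside the median of all tested genes (dashed line). None passed an adjusted p of 0.05, and the widest bars belong to the small heat shock and heat shock protein 70 B2 models.

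All 4 small heat shock models lay on scaffold supercont3.99, in a run of 9 consecutive gene models from 238250 to 287418. The other 5 models of the run are described as lethal(2) essential for life, which in *Drosophila* is itself a protein of the alpha-crystallin family. Within this stretch of 49169 bases 2 patterns were seen. Heat shock protein 27 (CPIJ005642-RA, 255738 to 256304), heat shock protein 22 (CPIJ005645-RA, 262784 to 263417) and alphaA-crystallin (CPIJ005646-RA, 267771 to 268295) were each highest in pallens 5, pallens 4 and quinquefasciatus 3. Heat shock protein 26 (CPIJ005640-RA, 251078 to 251990) was highest in pallens 6 and pallens 7, where the other 3 were low.

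Heat shock protein 22 gave 5.37, 0, 19.6, 0.43 and 2.11 CPM in quinquefasciatus 1 to 5. In pallens it ranged from 0.59 CPM through a median of 3.07 CPM to 21.5 CPM in pallens 5. High and low pools thus occurred in both subspecies, and the count of 0 in quinquefasciatus 2 allows up to 0.635 CPM, the value of 3 reads there. Its log2 change was 0.16 (SE 1.05, edgeR adjusted p = 0.968). Heat shock protein 27 gave 4.602, 0.85, 13.8, 0.64 and 1.05 CPM in quinquefasciatus 1 to 5 and 0.44 to 16.0 CPM in pallens, with a median of 5.05 CPM. These ranges nearly coincided, and the log2 change was 0.57 (SE 0.85, edgeR adjusted p = 0.794). AlphaA-crystallin, named after the lens protein of vertebrates, gave 0.96, 0.21, 8.07, 0.86 and 1.05 CPM in quinquefasciatus 1 to 5. In pallens it ranged from 0.44 to 14.4 CPM with a median of 2.83 CPM. Quinquefasciatus 3 stood far above the other 4 pools of its subspecies, and the log2 change was 1.06 (SE 0.93, edgeR adjusted p = 0.635). The median change of the class moved most with that pool, rising to 1.71 without it, and was 0.16 to 0.74 without any 1 of the others.

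Heat shock protein 26 was the most abundant of the 4, at 49.7 ± 26.2 RPKM (SD, n = 12), against 7.26 to 9.85 RPKM for the other 3. It gave 14.8, 53.2, 34.4, 16.7 and 36.9 CPM in quinquefasciatus 1 to 5 and ranged in pallens from 29.4 through 45.0 to 83.4 CPM. The lowest values were those of quinquefasciatus 1 and 4, and the other pools overlapped (log2 change 0.64, SE 0.36, edgeR adjusted p = 0.455).

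The neighbouring lethal(2) essential for life models differed among themselves in the same way. CPIJ005644-RA reached 155 CPM in quinquefasciatus 3, 111 CPM in pallens 3 and 59.0 CPM in pallens 5, and lay between 2.35 and 27.1 CPM in the other 9 pools. CPIJ005643-RA had the same 3 highest pools, at 34.8, 16.7 and 11.1 CPM. CPIJ005639-RA, at the end of the run, was steady at 49.8 to 137 CPM. CPIJ005647-RA, at the opposite end, had 0.90 CPM or less in every pool. The high pools thus differed along the locus: quinquefasciatus 3 and pallens 5 were high for both sets of genes, pallens 4 mainly for heat shock proteins 22 and 27 and alphaA-crystallin, and pallens 3 mainly for CPIJ005643-RA and CPIJ005644-RA.

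**Figure D3:**
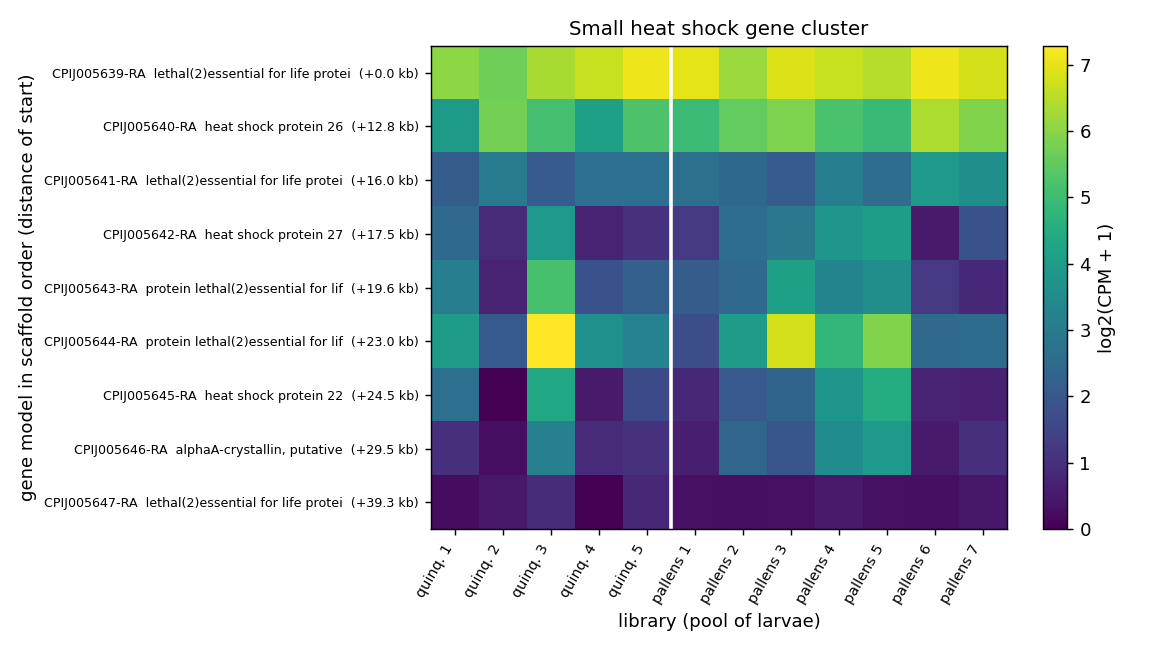
Levels, as log2(CPM + 1), of the 9 gene models of the small heat shock cluster in scaffold order (rows, with the distance of each start from the first) in the 12 libraries (columns; white line between subspecies). In the rows from CPIJ005642-RA to CPIJ005646-RA the brighter cells are those of quinquefasciatus 3, pallens 4 and pallens 5. For CPIJ005643-RA and CPIJ005644-RA pallens 3 is bright too. CPIJ005641-RA is brightest in pallens 6 and pallens 7, while the rows of CPIJ005639-RA and CPIJ005640-RA are bright in most pools.

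Among Hsp70 genes, heat shock 70 kDa protein cognate 4 (CPIJ008915-RA, supercont3.208 at 624069 to 626382) was by far the most abundant. Cognate proteins of this kind work in unstressed cells. It had 1669 ± 402 RPKM (SD, n = 12). It gave 4146, 3724, 3677, 3727 and 3051 CPM in quinquefasciatus 1 to 5 and ranged in pallens from 2582 through 4008 to 5365 CPM. The quinquefasciatus pools fell wholly within the pallens range, and the log2 change was 0.11 (SE 0.19, edgeR adjusted p = 0.83).

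The Hsp70 model nearest to the threshold was heat shock protein 70 B2 on supercont3.549 (CPIJ014283-RA, 38479 to 45345). Its values were 83.4, 98.1, 88.6, 91.8 and 103 CPM in quinquefasciatus 1 to 5. Pallens ranged from 108 through 130 to 216 CPM, so every pallens pool lay above every quinquefasciatus pool. The means were 144 ± 36.9 CPM (SD, n = 7) and 92.9 ± 7.61 CPM (SD, n = 5), and the log2 change was 0.64 (SE 0.19, edgeR adjusted p = 0.184). It was steady in quinquefasciatus and spanned 108 to 216 CPM in pallens, less variable within a subspecies than the models that share its description.

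Those other models named heat shock protein 70 B2, after the heat-inducible genes of *Anopheles*, had few reads in most pools and many in some. CPIJ011081-RA (27117 to 29033), CPIJ011082-RA (31073 to 33144) and CPIJ011083-RA (39994 to 42066) lay side by side on supercont3.316. CPIJ011081-RA gave 4.22, 0, 3.05, 0.64 and 8.16 CPM in quinquefasciatus 1 to 5, and in pallens 0.22 through 5.66 to 59.0 CPM. CPIJ011082-RA gave 13.04, 0.42, 2.33, 1.72 and 5.26 CPM, and in pallens 0.22 through 5.92 to 43.1 CPM. Pallens 5 and pallens 4 were highest for both, and pallens 6 was lowest in pallens. Their log2 changes of 2.24 (SE 1.14, edgeR adjusted p = 0.42) and 1.32 (SE 1.07, edgeR adjusted p = 0.605) rested on those pools: without pallens 4 and pallens 5 the change of CPIJ011082-RA was -0.68. CPIJ011083-RA, too low to be tested and described after its values were seen, had 46, 43 and 41 reads in pallens 5, quinquefasciatus 1 and pallens 4, and 12 or fewer elsewhere.

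CPIJ014564-RA on supercont3.569 (116776 to 118728), also described after its values were seen, had the same description and another order of pools. It was highest in pallens 7 (26.4 CPM), pallens 6 (22.5 CPM) and pallens 2 (10.1 CPM), and had 0 reads in pallens 1 and quinquefasciatus 5. The trio on supercont3.316 thus shared its high pools pallens 4 and pallens 5 with heat shock proteins 22 and 27, but not quinquefasciatus 3, where CPIJ011081-RA and CPIJ011082-RA had 3.05 and 2.33 CPM.

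The last Hsp70 models were heat shock protein 70 (CPIJ010925-RA, supercont3.287) and heat shock 70 kDa protein 4 (CPIJ019868-RA, supercont3.2038), the latter named after an exchange factor of Hsp70 in mammals. CPIJ010925-RA gave 164, 85.6, 80.4, 137 and 170 CPM in quinquefasciatus 1 to 5 and 59.6 to 177 CPM in pallens. CPIJ019868-RA, named after its values were seen, gave 137, 69.9, 73.5, 107 and 110 CPM and 39.4 to 149 CPM. The ratio of the first to the second stayed between 0.99 and 1.54 in all 12 pools although the first varied 2.98-fold and the second 3.79-fold. Neither differed between the subspecies, beyond the spread between pools, with log2 changes of -0.05 (SE 0.32) and -0.01 (SE 0.33).

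The Hsp90 class consisted of 3 models of heat shock protein 83, the insect Hsp90, and a short model named heat shock protein 82. CPIJ015075-RA (supercont3.628 at 1782 to 4885) was the most abundant, at 92.0 ± 47.9 RPKM (SD, n = 12). It gave 375, 199, 50.6, 146 and 270 CPM in quinquefasciatus 1 to 5 and ranged in pallens from 91.2 through 219 to 429 CPM. The 8.47-fold span between quinquefasciatus 3 and pallens 4 lay across both subspecies, and the log2 change was 0.31 (SE 0.48, edgeR adjusted p = 0.801).

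The other pair lay on supercont3.343, CPIJ011244-RA at 325148 to 327298 and CPIJ011246-RA at 338255 to 340405. CPIJ011246-RA gave 109, 70.9, 33.0, 77.8 and 106 CPM in quinquefasciatus 1 to 5 and 97.6 through 144 to 208 CPM in pallens, with overlap in 1 pallens pool, pallens 3, below quinquefasciatus 1 and 5. Its means were 150 ± 41.9 CPM (SD, n = 7) and 79.5 ± 31.0 CPM (SD, n = 5), and the log2 change was 0.92 (SE 0.30, edgeR adjusted p = 0.211). The part of this model covered by unique reads also differed between the subspecies, as given below. CPIJ011244-RA gave 80.2, 55.9, 31.0, 55.1 and 84.8 CPM and 51.2 through 87.0 to 105.1 CPM (log2 change 0.47, SE 0.25, edgeR adjusted p = 0.444). All 3 models were lowest in quinquefasciatus 3, one of the highest pools for heat shock proteins 22 and 27. All 3 were highest in pallens 4 and pallens 5, which were also high for those small heat shock proteins. CPIJ011247-RA, 285 bases long, had 1 to 8 reads per library and was not tested.

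The files count uniquely mapped reads and give the percent of each model that they cover. The heat shock protein 83 models were covered to a median of only 28.3% to 41.7% of their length, although their median counts were 349.5 to 969.5 reads. Of 902 tested models of 1000 to 2600 bases with a median of 200 to 2000 reads, members included, the median coverage was 96.5%, and 3.44% were covered to less than 50%. Coverage of CPIJ011246-RA was 20.8% to 25.4% in quinquefasciatus and 26.2% to 33.9% in pallens, without overlap. For CPIJ011244-RA it was 22.6% to 29.9% and 30.4% to 37.6%, also without overlap. CPIJ015075-RA did overlap, at 38.3% to 43.3% and 39.3% to 43.9%. The part of these coverage differences in the log2 changes of CPIJ011246-RA and CPIJ011244-RA was not tested. The heat shock protein 70 B2 models CPIJ011081-RA and CPIJ011082-RA reached at most 25.1% and 35.5%, with up to 233 and 170 reads. Their median counts were 19.5 and 16.5 reads. Of 4267 tested models of that length with a median of 10 to 200 reads, 34.7% were covered to less than 50%, with a median of 61.8%. The 5th percentile of these models was 22.6%. CPIJ011081-RA and CPIJ011082-RA lay below it, at medians of 15.1% and 18.5%. Their median counts were near the low end of that range, and coverage is lower at lower counts. The medians alone therefore cannot tell a deficit from low counts. In pallens 5, 233 and 170 reads covered 25.1% and 34.6% of these models. CPIJ014283-RA, of the same description, was covered to a median of 96.3%. RPKM divides by the whole length, so the levels of the Hsp90 class are not on the footing of well covered genes: divided by the covered length, CPIJ015075-RA would have 221 ± 111 RPKM in place of 92.0 (SD, n = 12). Whether near-identical copies took reads from these models was not tested, because no sequence was used here, and the values of single copies are uncertain for that reason.

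**Figure D4:**
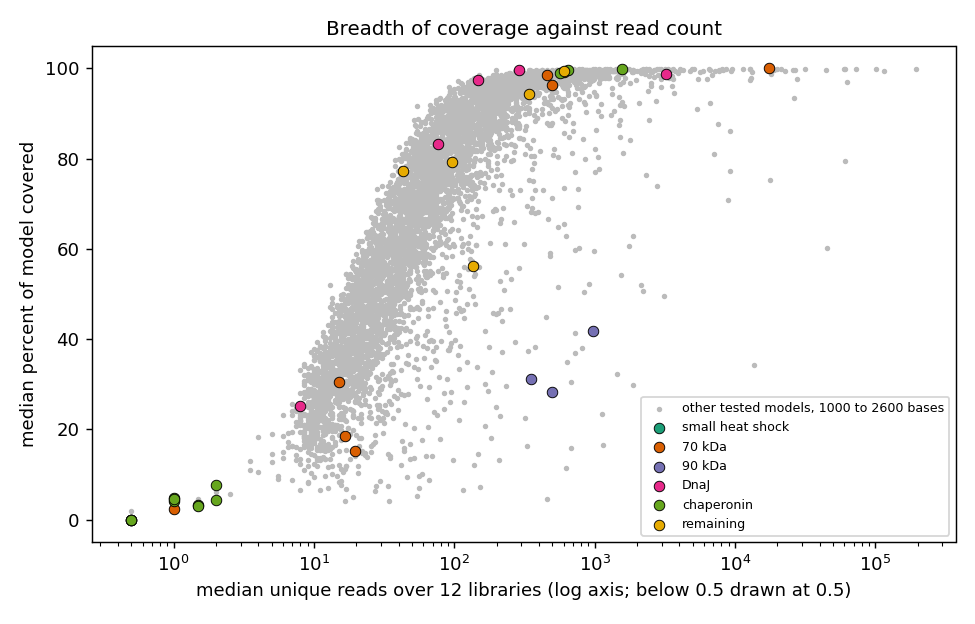
Median percent of a model covered by unique reads against its median read count over 12 libraries (log axis), for members of 1000 to 2600 bases (coloured by class) and other tested models of that length (grey). The 3 heat shock protein 83 models lie at 28.3% to 41.7%, far below the band of models with as many reads.

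Of the 8 DnaJ models, 6 were tested, and the class was led by DNAJ chaperone (CPIJ003204-RA, supercont3.43 at 1180600 to 1184792) with 323 ± 79.4 RPKM (SD, n = 12). It gave 626, 567, 375, 584 and 861 CPM in quinquefasciatus 1 to 5 and 647 through 782 to 929 CPM in pallens. Most pallens pools were above most quinquefasciatus pools, but quinquefasciatus 5 was second of all 12 (log2 change 0.38, SE 0.20, edgeR adjusted p = 0.435). A pair of models described as DNA-J/hsp40 went opposite ways. CPIJ003825-RA was highest in pallens 6 (149 CPM), pallens 7 (116 CPM) and quinquefasciatus 2 (102 CPM) and lay between 39.1 and 75.3 CPM elsewhere. CPIJ005508-RA was highest in pallens 1 (81.2 CPM) and pallens 4 (57.0 CPM), and lowest in pallens 7 (16.5 CPM) and pallens 6 (18.5 CPM). Their log2 changes were 0.42 (SE 0.34) and -0.17 (SE 0.40). CPIJ003825-RA overlaps another gene model, CPIJ003826-RA, and the libraries do not record the strand.

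Among the steadier DnaJ models were DNAJC11 (CPIJ011178-RA), named after a mitochondrial protein of mammals, at 13.1 to 23.4 CPM, and the DnaJ domain protein CPIJ008583-RA, at 11.4 to 22.9 CPM. Their adjusted p-values were 0.571 and 0.904 (edgeR). The sixth, Dnajc8 (CPIJ003642-RA), named after its values were seen, stayed between 14.7 and 27.2 CPM. Of the untested pair, both described after their values were seen, CPIJ016401-RA had 70, 65 and 35 reads in pallens 6, pallens 7 and pallens 2 and 10 or fewer in the other 9 libraries. CPIJ016733-RA, which overlaps another model, had at most 10 reads, in pallens 6 and pallens 7. CPIJ016401-RA thus had the same 3 highest pools as the Hsp70 model CPIJ014564-RA.

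The chaperonins were the largest class by number and were carried by 3 models, which held 91.4% of the summed mean RPKM of the 48. Models described as T-complex protein 1 are outside this class. Of these, CPIJ018377-RA gave 269 to 476 CPM and CPIJ004080-RA 251 to 444 CPM. CPIJ010003-RA gave 8.62 to 32.3 CPM, and the untested ones had 2.11 CPM or less. CPIJ006040-RA (supercont3.106 at 171625 to 184897), described only as chaperonin, had 173 ± 37.1 RPKM (SD, n = 12). It gave 344, 374, 295, 324 and 428 CPM in quinquefasciatus 1 to 5 and 291 through 328 to 480 CPM in pallens, and the log2 change was -0.00269 (SE 0.18, edgeR adjusted p = 0.998). The means differed by less than the spread between pools. CPIJ002450-RA (supercont3.32 at 1051754 to 1058009) gave 138, 132, 135, 121 and 143 CPM and 131 through 145 to 253 CPM, the highest values being those of pallens 6 and pallens 7 (log2 change 0.36, SE 0.20, edgeR adjusted p = 0.459). The mitochondrial 60 kDa heat shock protein (CPIJ008889-RA, supercont3.208 at 239413 to 241134) gave 143, 99.1, 103, 117 and 149 CPM and 87.5 through 144 to 180 CPM. Its lowest pools were pallens 7 and pallens 6, the reverse of CPIJ002450-RA (log2 change 0.17, SE 0.23, edgeR adjusted p = 0.767).

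The other 5 tested chaperonins had at most 4.98 CPM in any pool. CPIJ013429-RA (supercont3.475 at 239574 to 242207) gave 0.19, 0.64, 1.08, 0.21 and 3.16 CPM in quinquefasciatus 1 to 5, from 1 to 12 reads, and 1.52 through 2.63 to 3.74 CPM in pallens. Quinquefasciatus 5 lay among the pallens pools and the other 4 below them all. Its log2 change was 1.39 (SE 0.53, edgeR adjusted p = 0.291), and without quinquefasciatus 5 it was 2.24 and passed the threshold, a fit in which 1.93% of all genes did. CPIJ017016-RA, at 1.29 to 4.33 CPM, differed by 0.44 on the log2 scale (SE 0.37, edgeR adjusted p = 0.612). These 5 models had median counts of 8.5 to 14 reads and were covered to medians of 7.3% to 42.8%. The class median of 0.36 over 8 tested chaperonins thus rests largely on low counts.

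The remaining 40 chaperonin models were too low to be tested. They had 1 to 35 reads in all 12 libraries together, with a median of 9.5, and at most 11 in any library. None was read in all 12 libraries. Of all 48 chaperonin models, 24 had 10 reads or fewer in all, each of them among these 40, against 16.0% of all gene models. The 40 were set apart by their low counts, so their own share cannot be read against that of all models. They lay on 37 scaffolds and were 165 to 2400 bases long. Together they made up 3.48% of the RPKM of the class. The deposited functional annotation gives binding of adenyl ribonucleotides for 36 of these 40. The word chaperonin, alone or with putative, was the whole description of 42 of the 48 models.

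Among the 13 remaining models, all tested, were models named after regulators of heat shock genes, whose effect on the other members was not tested. Heat shock transcription factor (CPIJ007985-RA, supercont3.186), the activator of heat shock genes, gave 116 to 156 CPM in quinquefasciatus and 116 to 218 CPM in pallens, highest in pallens 6 and pallens 7. Heat shock factor binding protein (CPIJ010982-RA), an inhibitor of that factor in other animals, gave 49.7 to 67.7 CPM and 28.4 to 74.1 CPM, lowest in the same 2 pools. Both were described after their values were seen, and neither passed the threshold (edgeR adjusted p = 0.571 and 0.525). A short neighbour, CPIJ007986-RA, also chosen after its values were seen, has the description heat shock transcription factor too and had 3 to 16 reads per library.

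The most abundant remaining models were heat shock protein CPIJ009818-RA, at 312 ± 82.5 RPKM, and heat shock protein, putative CPIJ007228-RA, at 172 ± 47.9 RPKM (SD, n = 12). They gave 75.4 to 220 CPM and 111 to 204 CPM in quinquefasciatus and 91.6 to 229 CPM and 94.2 to 233 CPM in pallens. The ranges of the subspecies overlapped almost wholly, with log2 changes of -0.07 (SE 0.30) and 0.04 (SE 0.27). A pair named heat shock protein 67B2 lay on supercont3.499. CPIJ013880-RA gave 41.6, 10.8, 33.7, 29.8 and 36.3 CPM in quinquefasciatus 1 to 5 and 5.78 through 13.9 to 63.7 CPM in pallens. The highest value, in pallens 1, was 11.02-fold the lowest, in pallens 6. CPIJ013882-RA was highest in pallens 3 (99.1 CPM) and quinquefasciatus 3 (76.2 CPM). Their log2 changes were -0.56 (SE 0.51, edgeR adjusted p = 0.654) and 0.32 (SE 0.31, edgeR adjusted p = 0.672). The change of CPIJ013880-RA was -1.16 without pallens 1 and -0.39 without pallens 6. That of CPIJ013882-RA was 0.12 without pallens 3 and 0.60 without quinquefasciatus 3.

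Hsp70 binding protein (CPIJ000357-RA), a nucleotide exchange factor in other animals, gave 6.82 to 11.58 CPM in quinquefasciatus and 5.12 to 7.83 CPM in pallens (log2 change -0.36, SE 0.18, edgeR adjusted p = 0.413). Lambda-crystallin (CPIJ019115-RA), a dehydrogenase recruited to the lens in rabbits, gave 20.01 to 29.4 CPM and 20.6 to 58.6 CPM (log2 change 0.52, SE 0.24, edgeR adjusted p = 0.38). It was covered to a median of 56.1%. The other 4 remaining models, CPIJ011017-RA, CPIJ010016-RA, omega-crystallin (CPIJ007301-RA) and mu-crystallin (CPIJ008207-RA), named after their values were seen, had log2 changes between -0.04 and 0.34.

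The classes differed in how far their members varied between pools of 1 subspecies, measured as the SD of log2(CPM + 1) within a subspecies. The median SD was 1.31 for the small heat shock models, 0.63 for the Hsp70 class, 0.54 for the Hsp90 class, 0.31 for DnaJ, 0.34 for chaperonins and 0.36 for the remaining models, against 0.41 for all tested genes. An SD above 1 was found in 6 of the 41 tested members, 14.6%, against 6.49% of all tested genes. These were heat shock proteins 22 and 27, alphaA-crystallin and the Hsp70 models CPIJ011081-RA, CPIJ011082-RA and CPIJ014564-RA. All 6 averaged under 10 RPKM. Untested members are left out of these medians and counts. Among them the Hsp70 model CPIJ011083-RA had an SD of 1.53 and the DnaJ model CPIJ016401-RA of 1.27, and the others 0.65 or less.

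No library was high for all of the members. Among the 41 tested members, pallens 4, pallens 5 and pallens 6 were each among the 3 highest pools 15 times, and quinquefasciatus 2 only 4 times. Quinquefasciatus 2 was among the 3 lowest 19 times and pallens 4 only 3 times. Pallens 6 was also among the 3 lowest 14 times. The same counts were not made over all tested genes, so they are not known to be particular to chaperones, and members that vary together are counted separately. The content of the pools differed as well. Cuticle proteins summed to 33121 CPM in pallens 2, 28986 CPM in pallens 5 and 19662 CPM in pallens 3, but to 2568 CPM in pallens 4 and 2325 CPM in quinquefasciatus 3. Of the 3 pools high for heat shock protein 22, then, 1 was rich in cuticle transcripts and the others were not. Trypsins and chymotrypsins of the gut summed to 3763 CPM in pallens 6 and 4219 CPM in pallens 7, the lowest, and to 16960 CPM in quinquefasciatus 5, the highest. The part of these differences in the chaperone values was not tested.

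**Figure D5:**
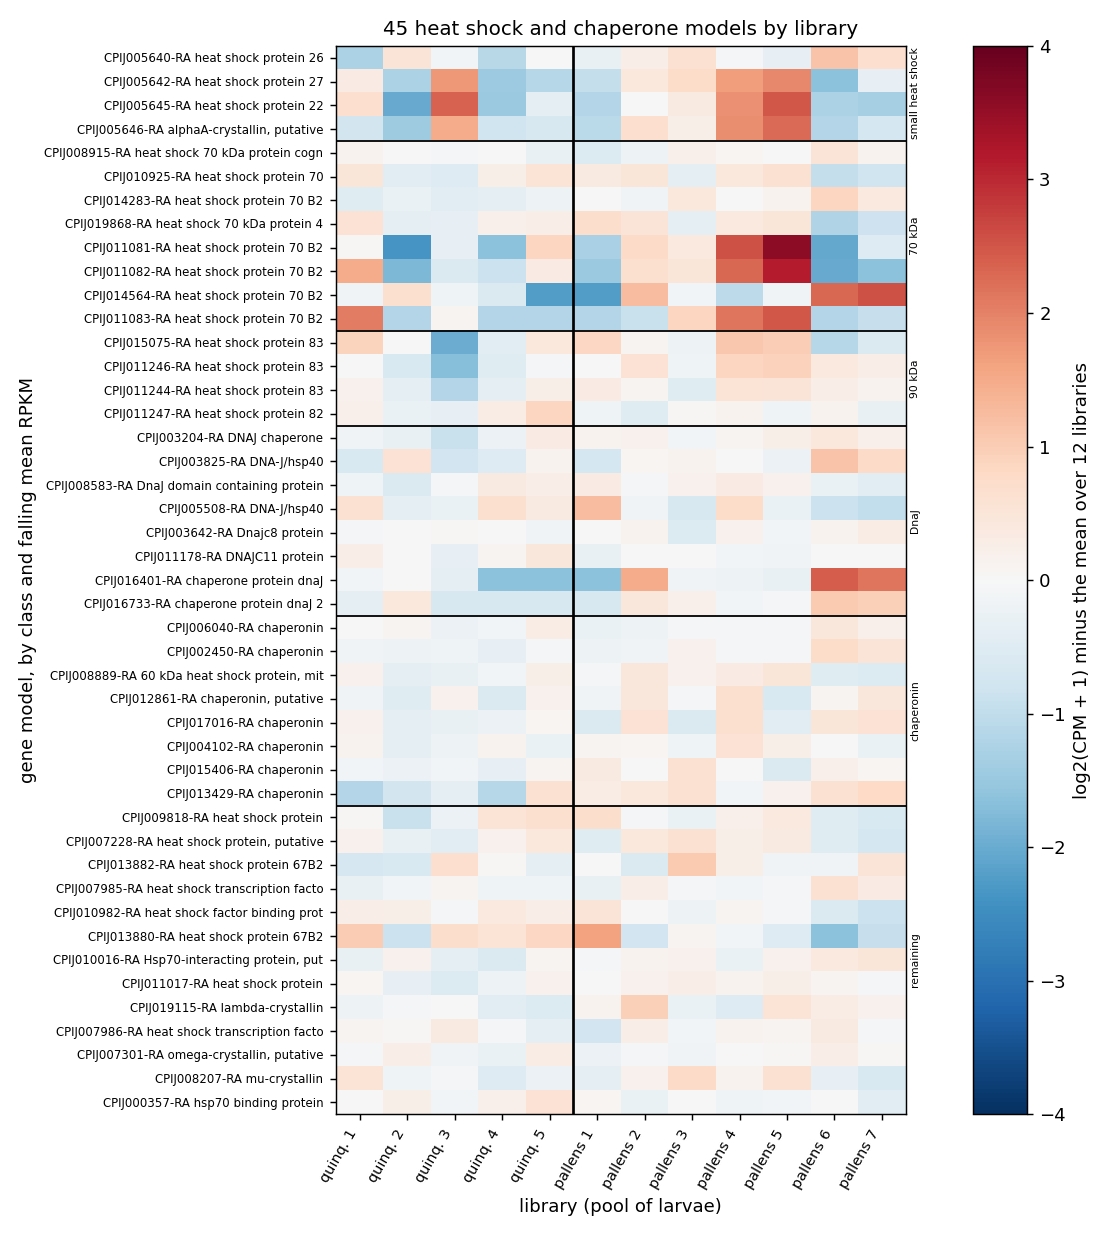
Level of 45 members, the 41 tested and the 4 untested ones outside the chaperonins, in each library as log2(CPM + 1) minus the model's mean over 12 libraries, grouped by class (horizontal lines) and subspecies (vertical line). Heat shock proteins 22 and 27, alphaA-crystallin and the heat shock protein 70 B2 trio are red in pallens 4 and pallens 5, and CPIJ014564-RA and CPIJ016401-RA are red in pallens 6 and pallens 7.

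Other genes of protein folding outside the members gave 0 calls among 62 tested genes in 7 lists (edgeR), and DESeq2 called 2, CPIJ009953-RA and CPIJ013337-RA, which code for paraplegin and tubulin-specific chaperone e. These were 3.23% of the 62, near the 2.78% of all genes that DESeq2 called. limma-voom and limma on log2 RPKM called 0, where they called 0.867% to 1.02% of all genes and edgeR 0.537%. At an unadjusted p under 0.05 there were 2 higher and 1 lower with edgeR, 4.84% of the 62 against 13% of all tested genes. Of 12 genes of folding in the endoplasmic reticulum all were tested, with a median log2 change of -0.14. The one with the smallest p, a protein disulfide isomerase (CPIJ005219-RA), averaged 202 ± 37.3 CPM in pallens against 140 ± 80.4 CPM in quinquefasciatus (edgeR adjusted p = 0.462). Of 14 gene models described as T-complex protein 1 or TCP-1, the cytosolic chaperonin, 6 were tested, with a median of 0.15. Several of the 14 carry the name of the same subunit. The smallest p was that of a gamma subunit (CPIJ010003-RA), at 19.0 ± 8.37 and 14.0 ± 2.79 CPM (edgeR adjusted p = 0.53).

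Of 11 genes of prefoldin and tubulin folding, all tested, tubulin-specific chaperone e (CPIJ013337-RA) came nearest, at 32.2 ± 8.74 CPM in pallens against 16.8 ± 4.94 CPM in quinquefasciatus (log2 change 0.95, SE 0.23, edgeR adjusted p = 0.0969). Among 8 tested genes of mitochondrial protein quality control, a model described as paraplegin (CPIJ009953-RA), a protease of the inner membrane, averaged 13.05 ± 5.39 and 5.50 ± 0.57 CPM (log2 change 1.25, SE 0.28, edgeR adjusted p = 0.0806). The 20 tested peptidyl-prolyl isomerases, which turn proline bonds, had a median of 0.07, and the smallest p was that of CPIJ006954-RA, at 1.84 ± 0.55 and 3.61 ± 2.45 CPM (edgeR adjusted p = 0.289). Protein grpE (CPIJ008191-RA), the exchange factor of mitochondrial Hsp70, averaged 24.96 ± 5.19 and 23.9 ± 3.92 CPM. The 4 tested lethal(2) essential for life models had a median of 0.02, and CPIJ005641-RA, with the smallest p among them, averaged 7.39 ± 4.10 and 4.82 ± 1.48 CPM (edgeR adjusted p = 0.472).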

How the data were processed

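Per the labels' protocols, poly(A) RNA was isolated from pooled larvae and sequenced in libraries that do not keep the strand. Per the file headers, the authors deposited for each gene model the count of unique reads, its length, the percent of it covered by reads, and RPKM, which equalled count per length and header total. For aligner, counter and genome build the sources name none: not given in the sources used here. Models without reads were set to 0. The RefSeq gene table held 0 of the members, so descriptions and scaffold positions are those of the files.

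Counts were tested with the quasi-likelihood test of edgeR 4.0.16 (R 4.3.3) with TMM, filterByExpr and a robust fit over all 12 libraries, adjusted over 10617 genes. CPM values are TMM-normalized; the SE is the fitted log2 change over the square root of its F statistic. Limits for a count of 0 are 3 reads on the same TMM scale, and cover counting error only. Alternatives used DESeq2 1.42.0, limma 3.58.1, other scalings and filters, and fewer libraries. On simulated data for this comparison (10440 genes) the calls took in 25 of 97 changes of 2-fold and 82 of 92 changes of 4-fold, and 4 unchanged genes.

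Members, classes and lists were chosen with earlier results of these data known. Classes followed words of the description; omega-crystallin, an enzyme crystallin, was moved to the remaining models by hand. Named members were, in each class, the 3 highest in mean RPKM, the 2 tested with the smallest p and the 2 most variable by within-subspecies SD, and all of a class of 5 or fewer; others are marked as described after their values were seen.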

Additional observations from a re-analysis of the deposited data

Results flagged for a closer look

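In groups of 5 or 7 libraries, 1 library can lie far from all others of its subspecies, and chance alone would mark about 1 in 20 groups. Of 70 groups examined on the log2 scale, 6 held such a library. In pallens 1 the small heat shock models summed to 33.94 RPKM, below 83.4 to 126 RPKM in the other 6 pallens libraries. The Hsp70 class of the same library summed to 1194 RPKM, below 1923 to 2674 RPKM in the others. Cognate 4 (CPIJ008915-RA) alone accounted for 950 RPKM of this sum. Without that gene the class summed to 245 RPKM in pallens 1, the median of the pallens libraries. In TMM-normalized CPM cognate 4 had 2582 in pallens 1 and 3289 to 5365 in the other pallens libraries. In pallens 3 the heat shock protein 83 model CPIJ011244-RA had 51.23 CPM, against 77.5 CPM or more in the others. In quinquefasciatus 3 alphaA-crystallin (CPIJ005646-RA) had 8.072 CPM, against at most 1.05 CPM in the other 4 quinquefasciatus libraries. In quinquefasciatus 2 heat shock protein 67B2 (CPIJ013880-RA) had 10.8 CPM, against at least 29.8 CPM in the others. In the same library the remaining models summed to 754.8 RPKM, against at least 982 RPKM.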

How the results depend on the processing

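No paired analysis was possible because the labels give no replicate numbers, and the numbers used here only name the libraries. Leaving out pallens 4 and 5, or pallens 1 and quinquefasciatus 5, and dividing by covered length were chosen after seeing the data. DESeq2 called 1 member (CPIJ014283-RA), leaving out single libraries gave 0 to 1, and leaving out pallens 1 and quinquefasciatus 5 gave 1 of 42 (CPIJ013429-RA, log2 change 2.26), 2.38% against 3.40% of all genes in that fit. At an unadjusted p under 0.05 there were 11 of 85 members with no filter (12.9%, all genes 11.99%), 2 to 7 without single libraries (7 being 17.1% without pallens 1, all genes 19.0%) and 7 without pallens 1 and quinquefasciatus 5 (16.7%, all genes 18.3%), shares near those of all genes. The median log2 change of the small heat shock models ran from 0.16 to 1.71 without single libraries, and that of the remaining models was 0.21 without pallens 1 and quinquefasciatus 5. With a pseudocount of 0.1 the median SD was 1.80 for small heat shock models, 0.40 for chaperonins and 0.46 for all genes. With a pseudocount of 5 it was 0.70, 0.21 and 0.29, and 0.34 for all members.

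Some log2 changes that passed no threshold changed sign. CPIJ006040-RA became 0.000889 with RLE, 0.026 with upper quartile scaling, 0.070 with library totals, 0.00143 with DESeq2, 0.034 with limma on RPKM at either pseudocount, 0.037 without pallens 4 and 5, and 0.11 without pallens 1 and quinquefasciatus 5. CPIJ010925-RA became 0.0113 with library totals, 0.21 without pallens 6 and 7, and 0.020 without pallens 1 and quinquefasciatus 5. CPIJ009818-RA became 0.00299 and 0.00289 with limma on RPKM and 0.12 without pallens 6 and 7. CPIJ007228-RA became -0.00708 with limma-voom. Without pallens 6 and 7, CPIJ008915-RA became -0.016 and CPIJ005508-RA 0.11. Without pallens 4 and 5, CPIJ005642-RA became -0.46, CPIJ011082-RA -0.68, CPIJ015075-RA -0.090, CPIJ008583-RA -0.027 and CPIJ007228-RA -0.061. Without single libraries CPIJ006040-RA ran from -0.090 to 0.073, CPIJ010925-RA from -0.18 to 0.073, CPIJ007228-RA from -0.071 to 0.15, CPIJ009818-RA from -0.25 to 0.090, CPIJ008583-RA from -0.052 to 0.18 and CPIJ005645-RA from -0.59 to 1.62. The cause was not tested. In these libraries 3 reads are 0.538 to 0.790 TMM-normalized CPM, which limits the 40 untested chaperonins.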
